A study of Brassica napus with 12 samples.

Results

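Roots and mature leaves of Brassica napus plants grown without silicon were compared, with 3 root libraries and 3 leaf libraries out of the 12 in the series. The members were taken by their titles, Root_NoSi 1 to 3 and MatureLeaf_NoSi 1 to 3. Brassica napus, oilseed rape, is an allotetraploid whose nuclear genome joins an A subgenome with 10 chromosomes and a C subgenome with 9. The plants were wild type, variety Citizzen, raised in a greenhouse in aerated nutrient solution with 0 mM silicon. For the week before harvest both organs' plants received 3.4 mM NaCl, the sodium control for the silicon plants of the same series, so all 6 libraries share that supply. The roots were tagged roots, and the leaves, titled mature leaf, were tagged aerial, and the growth protocol says that shoot and root were parted at harvest. Planting and harvest dates were shared by all 6. The silicon libraries, used below as a second set, share the harvest date, but all except leaf replicate 3 carry a later planting date in the labels, so silicon and that date cannot be told apart in them. The series text speaks of biological replicates and gives no number of plants per library, so p-values measure the spread between these libraries.

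Roots take up water and mineral ions and anchor the plant, and mature leaves carry out most of its photosynthesis. In green plants in general, messenger RNAs for light-harvesting proteins and for the small subunit of the carbon-fixing enzyme Rubisco are among the most abundant leaf transcripts, while root transcriptomes carry many genes for ion transport and cell wall formation. In the count tables a gene is known only by an identifier that gives its subgenome, its chromosome and its order, so BnaC04g46560D is a gene of C04. Of the 52962 identifiers, 2287 matched a gene symbol of RefSeq's Da-Ae annotation, and 2 of those had a synonym. None of the 18 gene lists chosen for the 2 organs could be matched, and the organ labels were not checked against named markers. Of 2017 matches whose chromosomes could be compared, 93.2% named the same chromosome, so a match need not be the same gene. Apart from the 2 with a synonym, genes are therefore given by identifier, with no function stated.

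Poly(A)-selected RNA was sequenced with a strand-preserving kit, and the count of a gene is the number of reads on its sense strand. The sense counts summed to 15616881 to 18160760 per root library and 14429867 to 21792206 per leaf library. Libraries of an organ resembled each other far more than libraries of different organs. Across 44167 tested genes, Pearson's r of log2(CPM + 1) ran from 0.977 to 0.978 between root libraries, from 0.9505 to 0.979 between leaf libraries, and from 0.406 to 0.435 between a root and a leaf library. CPM is a gene's count scaled to a library total of 1000000 sense gene counts. Leaf replicate 2 was the smallest library and had 15.6% unmapped reads, against 5.62% to 7.04% in the other 5 libraries. The biological coefficient of variation, the edgeR estimate of relative spread between replicates, was 0.179 in root and 0.265 in leaf.

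Traces of each organ's abundant transcripts were also measured in the other organ, and they were highest in replicate 2 of both organs. The silicon libraries of the series served to choose 276 genes with at least 200 CPM in leaf and under 1% of that level in root. In the no-silicon libraries the median of these genes stood at 0.143%, 0.375% and 0.136% of its leaf level in root replicates 1, 2 and 3. For 38 root genes chosen in the same way, the median stood at 0.148%, 0.330% and 0.208% of the root level in leaf replicates 1, 2 and 3. What these reads come from was not tested. They touch the lists of organ-limited genes, whose lengths are given with and without replicate 2. Their other counts are given for all libraries only.

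The first question was how many genes differ between the organs and by how much. Most tested genes did. At a Benjamini-Hochberg adjusted p under 0.05 in edgeR's quasi-likelihood test, 27985 of 44167 genes (63.4%) were called, 13949 higher in root (31.6%) and 14036 lower in root (31.8%). A difference of at least 2-fold was called for 20376 genes (46.1%), 10026 higher in root (22.7%) and 10350 lower in root (23.4%). At 4-fold or more, 5766 genes were higher in root (13.1%) and 6539 lower in root (14.8%), 27.9% in all. The sides parted at larger differences. At 32-fold or more (9.19% of genes), 1526 were higher in root (3.46%) and 2535 lower in root (5.74%), and at a log2 difference of 8 or more (3.55%) 459 were higher in root (1.04%) and 1108 lower in root (2.51%). The middle of the distribution was symmetric, with percentiles 25 and 75 of the log2 difference, root minus leaf, at −0.92 and 0.89, whereas percentiles 1 and 99 were −9.54 and 8.06. In whole organs, fewer cells of a type and less RNA per cell cannot be told apart.

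**Figure D1:**
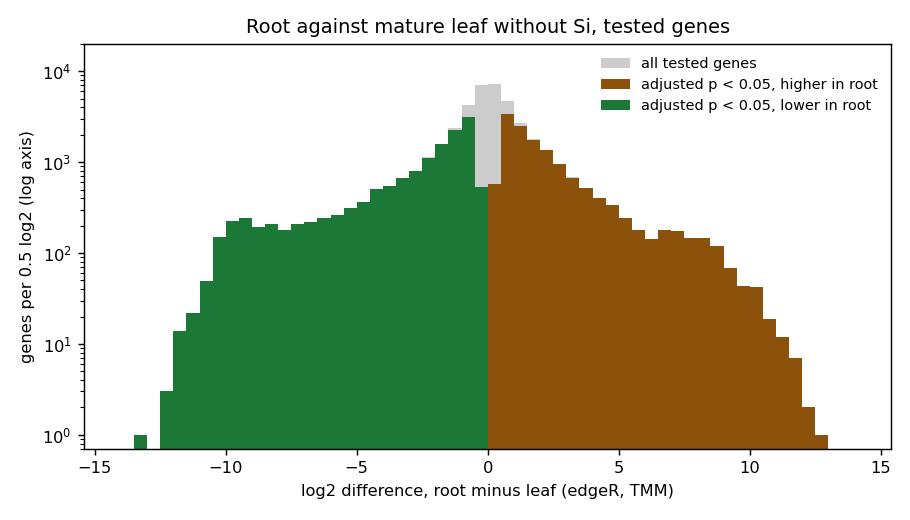
Number of tested genes (log axis) per 0.5 step of the log2 difference, root minus leaf, without silicon. Grey bars count all tested genes, brown and green bars those with an adjusted p under 0.05. The left tail of genes lower in root is the fuller one, with 2535 genes beyond 32-fold against 1526 on the root side.

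The even split between directions depends on the scaling. TMM, the edgeR scaling used here, assumes that most genes do not differ and set the median log2 difference at 0.02, with factors of 1.27 to 1.34 in root and 0.74 to 0.81 in leaf. With library totals only, the median of the same genes was 0.76, a shift of 0.75, and 74.3% of the calls were higher in root, against 49.8% under TMM. Of the TMM calls, 22641 were also called with the same sign under library totals and 127 with the opposite sign. At 32-fold or more the sides were close to even with library totals, with 2042 genes higher and 2082 lower in root. Absolute RNA amounts were not measured. After TMM, all 3 root libraries lay above all 3 leaf libraries for 15651 genes (35.4%) and below them for 15321 (34.7%).

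The most abundant genes of the organs were largely different ones. Of the 100 most abundant genes of each organ by mean CPM, 4 were in both lists, 4% of each. The 100 of root held 6.15% of root counts and 2.16% of leaf counts, and the 100 of leaf held 0.535% of root counts and 14.4% of leaf counts. All 100 leaf genes were called lower in root. Of the 100 root genes, 62 were called higher in root, 7 lower, and the rest did not pass. Each list was chosen by the level in its own organ, so these counts are a description. Ranked instead by mean CPM over the 6 libraries, abundant genes were mostly called lower in root. That mean is by library totals, whereas the calls use TMM. Of 1281 tested genes with a mean of 100 to 1000 CPM over the 6 libraries, 57.8% were called lower and 21.0% higher in root. All 18 genes at 1000 CPM or more were called lower. Over all tested genes these shares were 31.8% and 31.6%. CPM is not divided by gene length, so the ranks are of reads, not of molecules.

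Genes with large differences held a smaller share of root counts than of leaf counts. The 1526 genes called at least 32-fold higher in root held 5.75 ± 0.220% of root counts and 0.0315 ± 0.00237% of leaf counts (SD, n = 3 each). The 4240 genes called 4 to 32-fold higher in root held 13.5 ± 0.689% in root and 1.13 ± 0.0340% in leaf. On the other side, the 2535 genes at least 32-fold lower in root held 0.312 ± 0.0264% of root counts and 32.8 ± 1.77% of leaf counts. The 4004 genes 4 to 32-fold lower in root held 3.34 ± 0.148% in root and 18.97 ± 0.0342% in leaf. Together the 12305 genes with a called difference of 4-fold or more made up 22.9% of root counts and 52.9% of leaf counts. These classes were cut from the same libraries, so their shares there are a description. They were cut on TMM-scaled differences, whereas the shares are of library totals. The median log2 difference lay 0.75 higher by library totals, so the class borders are uneven on the scale of the shares. The silicon libraries, which had no part in the choice, gave close values. There the genes at least 32-fold lower in root held 0.314 ± 0.0323% of root and 31.2 ± 1.65% of leaf counts, and those at least 32-fold higher in root held 5.55 ± 0.193% of root and 0.0301 ± 0.00544% of leaf counts (SD, n = 3 each).

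**Figure D2:**
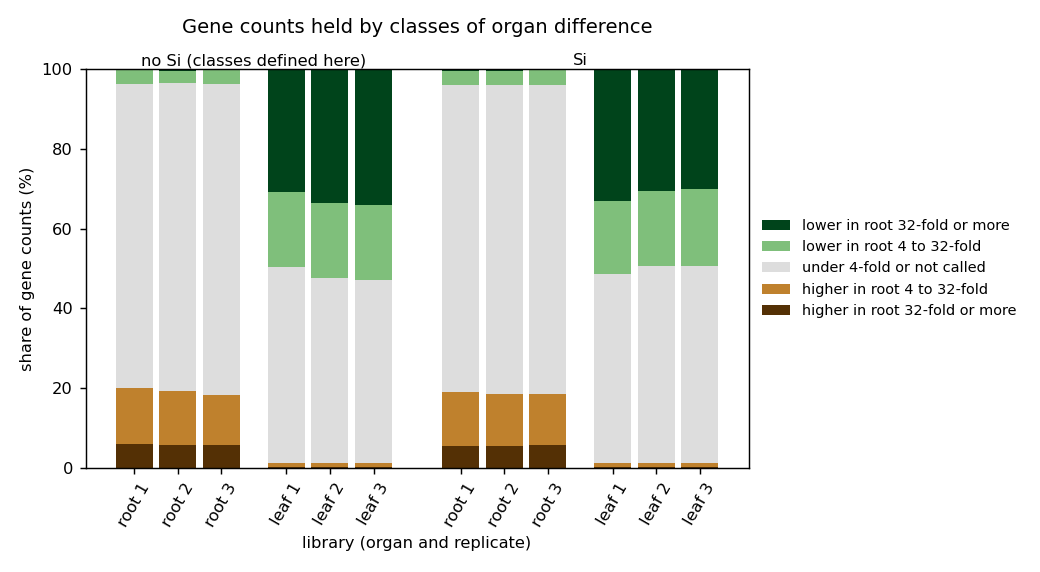
Share of sense gene counts (%) in each library held by 5 classes of genes, defined by the no-silicon root against leaf difference. In leaf bars the darkest green, genes at least 32-fold lower in root, takes 30.8% to 34.0% without silicon and 30.02% to 33.1% with silicon, and in root bars it takes under 1%.

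The genes at the head of each organ show the size of these contrasts. BnaA07g37340D, the most abundant gene called higher in root, had 1709, 1883 and 1448 CPM in the root libraries and 3.72, 4.99 and 2.09 CPM in the leaf libraries. Its mean was 1680 ± 219 CPM in root and 3.60 ± 1.45 CPM in leaf (SD, n = 3 each), and its log2 difference was 8.12 (SE 0.45; edgeR, Benjamini-Hochberg adjusted p = 1.54e-06). The groups were separated by a wide gap, and no library of either organ stood near the other.

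BnaA04g24870D, the next in root, had 1426, 1868 and 1379 CPM in root and 12.8, 5.89 and 10.7 CPM in leaf. The log2 difference was 6.57 (SE 0.39; edgeR, Benjamini-Hochberg adjusted p = 2.15e-06). In the silicon libraries these genes again stood far apart, at 1292 ± 230 and 1488 ± 276 CPM in root and 2.92 ± 2.098 and 4.79 ± 1.58 CPM in leaf (SD, n = 3 each).

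BnaC04g46560D was the most abundant gene of leaf. It had 6.06, 19.6 and 3.01 CPM in root replicates 1, 2 and 3, and 4058, 7149 and 5524 CPM in the leaf libraries. Its mean was 9.56 ± 8.84 CPM in root and 5577 ± 1546 CPM in leaf (SD, n = 3 each), with a log2 difference of −9.95 (SE 0.96; edgeR, Benjamini-Hochberg adjusted p = 3.55e-05). BnaAnng36210D, a gene of the A subgenome without a chromosome, had 5.40, 17.1 and 2.37 CPM in root and 3567, 5476 and 5878 CPM in leaf. Its log2 difference was −9.98 (SE 0.97; edgeR, Benjamini-Hochberg adjusted p = 3.52e-05). Both genes were highest in root replicate 2 among the root libraries, the library with the highest traces of leaf-abundant transcripts. Both meet the rule that chose the genes for those traces, so they are part of that measure. The part of the traces in these root values was not tested. Without root replicate 2 the log2 differences were −11.01 for BnaC04g46560D and −11.06 for BnaAnng36210D.

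Abundant genes without an organ difference were also present. BnaC01g35230D had 324.0, 470.0 and 287.1 CPM after TMM scaling in root, and 294.0, 537.1 and 315.8 in leaf. Its log2 difference was −0.09 (SE 0.31; edgeR, Benjamini-Hochberg adjusted p = 0.827). BnaC08g15900D had 486.5, 337.9 and 260.6 CPM after TMM scaling in root, and 274.9, 419.3 and 366.7 in leaf, with a log2 difference of 0.03 (SE 0.29; edgeR, Benjamini-Hochberg adjusted p = 0.930). In both genes the root and leaf libraries overlapped on this scale. By library totals only, BnaC08g15900D passed as higher in root, with a log2 difference of 0.79 (edgeR, Benjamini-Hochberg adjusted p = 0.0247).

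The 2 genes with a RefSeq synonym differed by less than 2-fold between organs. BnaA02g32290D carries the synonym KCP1, a protein described in this species as a partner of a histone deacetylase. It had 16.7, 15.4 and 14.5 CPM after TMM scaling in root and 20.9, 24.9 and 24.0 in leaf, without overlap. It was called lower in root, with a log2 difference of −0.58 (SE 0.14; edgeR, Benjamini-Hochberg adjusted p = 0.00658), and that direction turned to 0.17 with library totals only, where it did not pass. Without replicate 2 of both organs it was −0.52 and did not pass either (edgeR, Benjamini-Hochberg adjusted p = 0.0605). BnaCnng15100D, with the synonym TR1, averaged 26.4 ± 3.39 CPM after TMM scaling in root and 32.8 ± 4.24 in leaf (SD, n = 3 each). Its log2 difference of −0.31 (SE 0.16) did not pass (edgeR, Benjamini-Hochberg adjusted p = 0.122). It passed as lower in root without leaf replicate 1 (log2 difference −0.41) and as higher in root with library totals only (0.44).

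**Figure D3:**
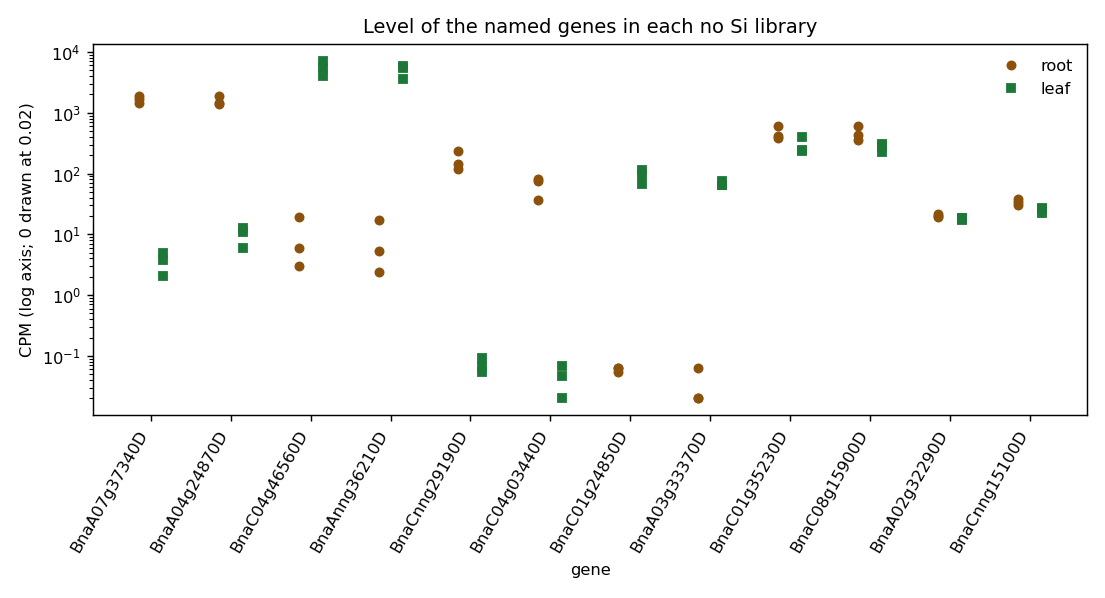
CPM (log axis) of the 12 genes described, in the 3 root and 3 leaf libraries without silicon, 1 point per library. CPM is by library totals, whereas the text gives the last 4 genes after TMM scaling. As drawn, BnaA02g32290D lies higher in root (19.5 to 21.2 against 17.0 to 18.4 CPM), the reverse of its TMM direction. BnaC08g15900D and BnaCnng15100D do not overlap as drawn. BnaCnng15100D lies higher in root (30.1 to 38.1 against 22.7 to 26.7 CPM), whereas its log2 difference after TMM scaling was −0.31 and did not pass. BnaA07g37340D stands between 1448 and 1883 CPM in root and between 2.09 and 4.99 CPM in leaf, BnaC04g46560D between 3.01 and 19.6 CPM in root and between 4058 and 7149 CPM in leaf, and the last 4 genes lie within 2-fold in both organs by their means.

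Detection was compared next. At 1 CPM or more, 40572 ± 148 genes were detected per root library and 38106 ± 518 per leaf library (SD, n = 3 each), and no root library fell within the leaf range. The exact permutation test gave a two-sided p of 0.1, the smallest that 3 against 3 allows. Of the 52962 genes, 33174 reached 1 CPM in all 6 libraries. In all root libraries and no leaf library this level was reached by 3717 genes, and in all leaf libraries and no root library by 2157. A further 8404 genes reached it in no library, 3677 of which had no read at all, and 5510 lay between these groups. These levels are by library totals, without TMM. The mean TMM factor of root was 1.68 times that of leaf, so on the TMM scale the cut was lower for root. Detection was not recounted on that scale, so the excess in root holds for library totals only.

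Stricter lists were drawn of organ-limited genes. They had at least 5 CPM in every library of an organ and under 0.1 CPM in every library of the other. The lower cut allowed at most 2 reads in leaf replicate 1 and at most 1 read in each of the other libraries. Root had 285 such genes, 0.538% of those listed, and leaf had 199, or 0.376%. These levels too are by library totals, so on the TMM scale both cuts were lower in root libraries than in leaf libraries. The lists were not redrawn on that scale, and their lengths are not comparable between organs beyond library totals. They were mostly of moderate abundance. The median root-limited gene had 13.5 CPM in root, the most abundant 166.3 CPM, and 72 exceeded 20 CPM. The median leaf-limited gene had 13.6 CPM in leaf, the most abundant 92.3 CPM, and 57 exceeded 20 CPM. Root-limited genes together held 0.511 ± 0.0126% of root counts, and leaf-limited genes 0.353 ± 0.0217% of leaf counts (SD, n = 3 each). No read in any library of the other organ was found for 94 of the root-limited and 48 of the leaf-limited genes. A count of 0 leaves a level of up to 0.138 to 0.208 CPM per library possible, a limit of 3 counts for counting error only.

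The border of these lists is set by the threshold. Just outside it, 181 genes on in root reached 0.1 to 0.2 CPM in a leaf library, and 280 genes on in leaf reached that level in a root library. Leaving out replicate 2 of both organs moved the counts to 392 in root and 354 in leaf, and leaving out root replicate 2 alone gave 317 leaf-limited genes. The silicon libraries, not used for the choice, put 190 of the 285 root-limited genes (66.7%) and 117 of the 199 leaf-limited genes (58.8%) in the same list. At least 5 CPM in every silicon library of their organ was kept by 254 and 180 of them. In the other organ the highest level of any of these genes with silicon was 0.751 CPM for a root-limited gene in leaf and 0.501 CPM for a leaf-limited gene in root.

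BnaCnng29190D, a C gene without a chromosome, led the root-limited list. It had 118.8, 235.4 and 144.6 CPM in root, and 2, 1 and 1 reads in leaf. Summed over libraries its level in root was 2250 times that in leaf (exact 95% interval 878.4 to 8260, counting error only). BnaC04g03440D had 76.2, 36.4 and 79.8 CPM in root and 1, 1 and 0 reads in leaf, a ratio of 1772 (490.3 to 14642). In the silicon leaf libraries BnaCnng29190D reached 0.404, 0.657 and 0 CPM, and BnaC04g03440D 0.115, 0.141 and 0 CPM, so neither met the rule there.

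BnaC01g24850D led the leaf-limited list, with 1 read in each root library and 68.1, 96.4 and 112.4 CPM in leaf. Its level in leaf was 1497 times that in root (exact 95% interval 511.9 to 7261, counting error only). BnaA03g33370D had 0, 1 and 0 reads in root and 76.3, 64.2 and 65.4 CPM in leaf. With 1 read in root in all, the ratio of 3441 had a lower bound of 617.2. With silicon BnaC01g24850D reached 0.167 CPM in a root library and did not meet the rule, whereas BnaA03g33370D, at most 0.0517 CPM in root and at least 48.2 CPM in leaf, did. Ratios of this size rest on 1 to 4 reads and give an order of magnitude.

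The concentration of each transcriptome was measured as the share of counts held by its most abundant genes, each library ranked on its own. Leaf counts were the more concentrated. The 100 most abundant genes held 6.70%, 6.35% and 5.72% of counts in the root libraries and 13.03%, 16.3% and 15.5% in the leaf libraries. The mean was 6.26 ± 0.496% in root and 14.9 ± 1.69% in leaf (SD, n = 3 each), a difference of −8.68 percentage points (exact permutation test, two-sided p = 0.1, the smallest possible here). The groups did not overlap, and root replicate 1 and leaf replicate 1 lay nearest to each other.

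The same order held at the other ranks examined. The single most abundant gene held 0.178 ± 0.0278% of counts in root and 0.569 ± 0.155% in leaf. The first 10 genes held 1.30 ± 0.179% in root and 3.89 ± 0.839% in leaf, and the first 1000 held 22.7 ± 0.980% in root and 40.8 ± 2.67% in leaf (SD, n = 3 each). It took 4887 ± 192 genes to reach 50% of root counts and 1909 ± 313 genes to reach 50% of leaf counts. Genes detected at 1 CPM had a median of 12.4 ± 0.216 CPM in root and 9.06 ± 0.348 CPM in leaf. With silicon, the first 100 genes held 6.16 ± 0.160% in root and 14.4 ± 1.64% in leaf (SD, n = 3 each).

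**Figure D4:**
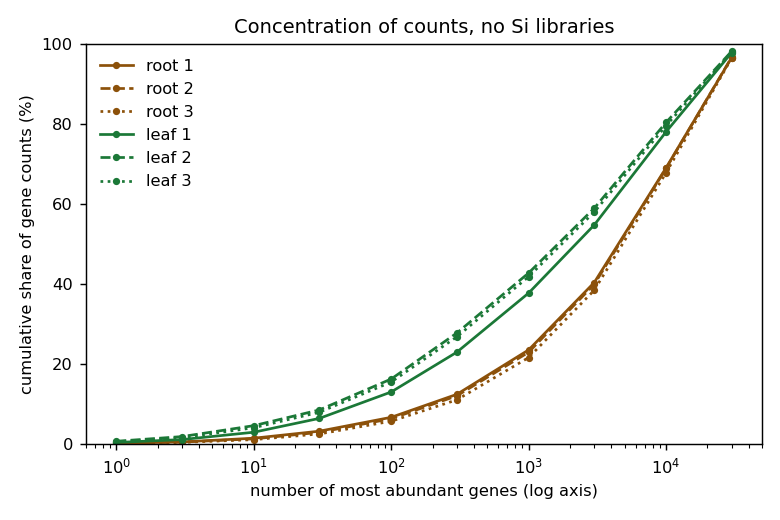
Cumulative share of sense gene counts (%) against the number of most abundant genes (log axis) for the 3 root and 3 leaf libraries without silicon. Leaf curves lie above root curves at the ranks drawn, with 13.03% to 16.3% at 100 genes in leaf and 5.72% to 6.70% in root.

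The subgenomes were compared by the letter in the identifier. Multimapping reads are listed apart from the gene counts, so shares cover reads given to 1 gene, and near-identical copies are uncertain. The C subgenome held 51.2%, 50.4% and 51.8% of A and C counts in the root libraries and 51.1%, 49.9% and 50.8% in the leaf libraries. The mean was 51.1 ± 0.710% in root and 50.6 ± 0.621% in leaf (SD, n = 3 each), and the groups overlapped (exact permutation test, two-sided p = 0.4). Replicate 2 had the lowest C share in each organ. Without the 274 genes that were among the 100 most abundant of any of the 6 libraries, the C share was 51.5 ± 0.647% in root and 51.6 ± 0.627% in leaf, and the sign of the difference reversed. C genes made up 51.6% of the A and C genes listed.

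By numbers of genes the subgenomes were also close. Of 21601 tested A genes, 32.5% were called higher and 31.6% lower in root. Of 22473 tested C genes, 30.7% were called higher and 31.95% lower in root. At 32-fold or more, the shares higher in root were 3.68% of A and 3.24% of C genes, and those lower in root 5.91% of A and 5.58% of C genes. Root-limited genes comprised 155 of A and 129 of C, and leaf-limited genes 93 of A and 106 of C. C genes were thus 45.4% of the root-limited and 53.3% of the leaf-limited genes of A and C, beside 51.6% of those listed, a difference that was not tested.

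Shares were next compared by chromosome. Of the 19 chromosomes, 9 had root and leaf libraries that did not overlap, 4 with a higher share in root (A03, A05, A06 and C05) and 5 with a lower one (A04, A08, A09, A10 and C04). Each had an exact permutation p of 0.1, the smallest possible, and 0.211 after Benjamini-Hochberg adjustment over 19. In the silicon libraries 8 of the 9 again did not overlap, in the same direction, and A04 did overlap there. Lack of overlap was common in those libraries, with 13 of all 19 chromosomes. The others without overlap there were A01, A02, C01, C03 and C07.

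A03 had the largest difference. It held 7.13%, 7.06% and 6.85% of root counts and 6.15%, 6.15% and 5.97% of leaf counts, a mean difference of 0.93 percentage points, and 6.79% of the genes listed. Its 3 largest contributors were BnaA03g30810D, BnaA03g08110D and BnaA03g11990D, singled out after their values were seen. Together they gave 0.209 points of the 0.93, so the rest was spread over further genes. Without the 274 abundant genes A03 still held 7.01 ± 0.113% in root and 6.404 ± 0.0934% in leaf (SD, n = 3 each).

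A09 and C04 were lower in root, and a few abundant genes weighed heavily in each difference. On A09 the 3 largest contributors, singled out after their values were seen, gave −0.637 points of −0.79. The 274 abundant genes were chosen by their level in these same libraries, so shares without them are a description. A09 held 6.15%, 6.30% and 6.16% of root counts and 6.95%, 6.97% and 7.07% of leaf counts. Of the 100 most abundant leaf genes 11 were on A09, the highest number of any chromosome, and of the 100 most abundant root genes 5. Without the 274 abundant genes the A09 difference reversed, with 6.48 ± 0.0961% in root and 6.15 ± 0.0700% in leaf (SD, n = 3 each), again without overlap. C04 held 5.09%, 5.20% and 5.13% of root counts and 5.75%, 6.05% and 5.88% of leaf counts. BnaC04g46560D alone accounted for −0.557 points and BnaC04g30870D for −0.344 points of a total of −0.75. Without the abundant genes C04 held 5.22 ± 0.0415% in root and 5.29 ± 0.0756% in leaf (SD, n = 3 each), with overlap.

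Leaving those 274 genes out changed the sign on 5 chromosomes, A01, A02, A06, A09 and C09, and changed which chromosomes were without overlap. A03, A04, A06, A08, A09 and A10 stayed without overlap, A05, C04 and C05 then overlapped, and C06 and C08, which overlapped with all genes, no longer did. On A06 the difference of 0.28 points became −0.35, with no overlap in either case. The A and C chromosomes of the same number that are largely colinear did not move alike throughout. The differences, root minus leaf, were −0.10 points on A01 and −0.34 on C01, −0.24 on A02 and 0.15 on C02, and 0.93 on A03 and 0.47 on C03, and of these 6 only A03 was without overlap. Some chromosomes varied between replicates in both organs. C03 was highest in replicate 3, with 9.00% in root and 8.40% in leaf, and C02 lowest in replicate 2, with 3.45% in root and 3.25% in leaf, and their root and leaf libraries overlapped.

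The share of called genes differed little between chromosomes. From 28.9% (C01) to 33.7% (A09) of a chromosome's tested genes were called higher in root, and from 29.9% (A08) to 34.1% (C06) lower in root, beside 31.6% and 31.8% over all genes. The median log2 difference of a chromosome lay between −0.04 (C09) and 0.07 (A07). A09 thus had the highest share of genes called higher in root while its share of counts was lower in root.

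**Figure D5:**
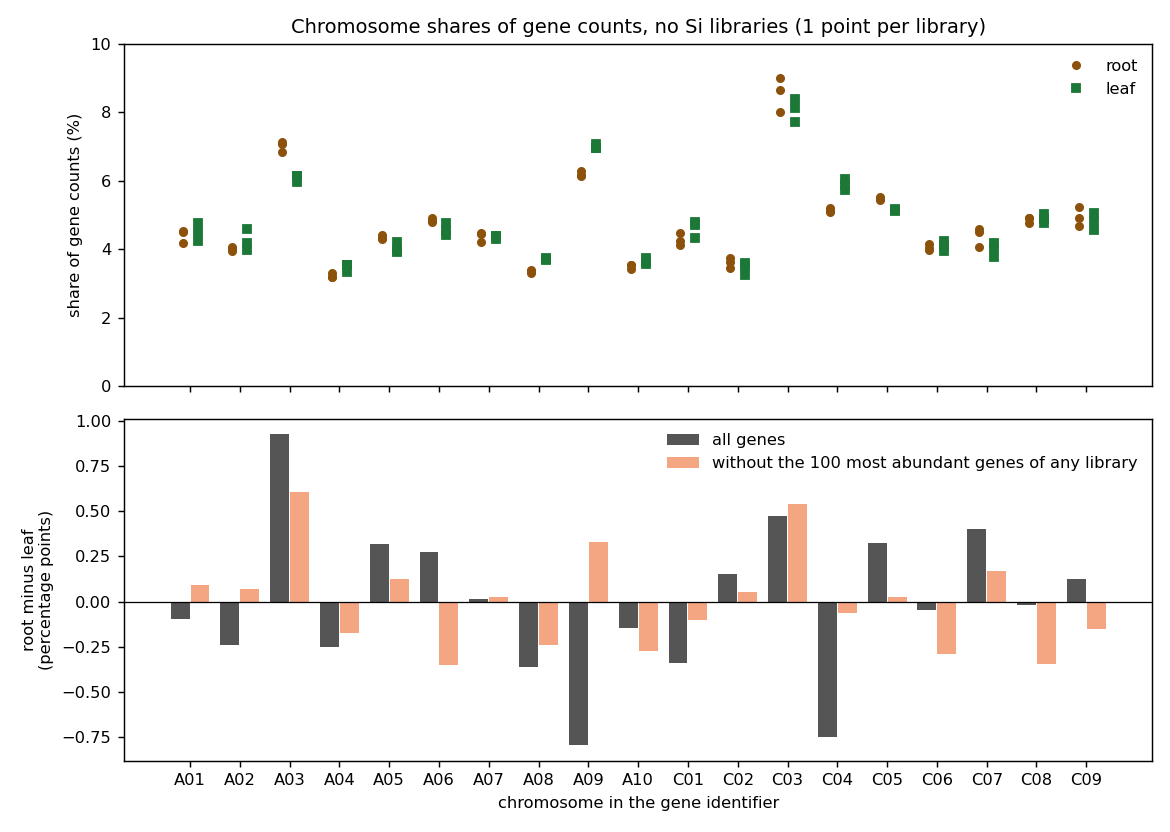
Upper panel, share of sense gene counts (%) by chromosome in the 3 root and 3 leaf libraries without silicon. Lower panel, mean root minus leaf difference in percentage points with all genes and without the 274 abundant genes. A09 turns from −0.79 to 0.33 and C04 shrinks from −0.75 to −0.06, whereas A03 stays at 0.61.

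Reads outside genes differed between the organs. They made up 13.9%, 13.7% and 14.1% of the root libraries and 9.504%, 6.94% and 7.75% of the leaf libraries, without overlap (exact permutation test, two-sided p = 0.1, adjusted p = 0.167 over 5 measures by Benjamini-Hochberg). With silicon the means were 13.9 ± 0.732% in root and 8.29 ± 0.656% in leaf (SD, n = 3 each). Multimapping reads made up 8.95 ± 0.172% in root and 8.97 ± 1.08% in leaf (SD, n = 3 each), with overlap and an exact permutation p of 1.

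The organ difference was last set beside that of the plants given 1.7 mM silicon, where 31652 of 44495 genes (71.1%) were called, 35.8% higher and 35.4% lower in root. Of 43898 genes tested in both, 27809 were called without silicon, and 26387 of these (94.9%) were called with the same sign with silicon, where they made up 84.4% of 31250 calls. Opposite calls were made for 5 genes. Of 12159 calls of at least 4-fold without silicon, 12105 were repeated with the same sign. Across genes the log2 differences had Pearson's r of 0.982, with a median absolute gap of 0.19. The interaction of organ and silicon was called for none of 45222 genes by edgeR (unadjusted p under 0.05 in 1823 genes, lowest Benjamini-Hochberg adjusted p 0.957) and for 8 by DESeq2.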

How the data were processed

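Poly(A)-selected, paired-end, stranded TruSeq libraries were made from 200 mg of tissue each, per the labels' protocols. The authors deposited, for each library, raw counts per gene in 3 columns, either strand, forward and reverse, with unmapped, multimapping, outside-gene and ambiguous reads in separate lines, per the file headers. The submitters' processing notes name TopHat2 and Bowtie2. The build, the annotation and the program that counted reads are not stated in the sources at hand. The reverse column gave the sense count, and the forward column held 0.434% to 0.723% of stranded gene counts.

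Root was tested against leaf in the 6 no-silicon libraries with edgeR 4.0.16 (R 4.3.3): filterByExpr, TMM factors, robust quasi-likelihood fit, two-sided, with calls at a Benjamini-Hochberg adjusted p under 0.05. Standard errors were derived from the F statistic. DESeq2 1.42.0, other scalings, filters and count columns, thinning and the removal of each library were alternatives. Library measures were compared by exact permutation tests (scipy 1.17.1). No replicate pair looked like a repeated library: chi-square per degree of freedom was 10.4 to 40.6 (genes with 20 or more reads in a pair).

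Genes named are the 2 most abundant called in each direction, the 2 most abundant limited to each organ, the 2 most abundant with an absolute log2 difference under 0.1, and those with a RefSeq synonym. Chromosome contributors were added after their values were seen. Members and lists were chosen with earlier results of these data known.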

Additional observations from a re-analysis of the deposited data

How the results depend on the processing

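The count of called genes stayed within 1.5 times its value under every alternative, and direction followed the scaling. With library totals only, 25188 genes were called higher and 8692 lower in root, and the log2 difference turned to 0.17 for BnaA02g32290D and to 0.44 for BnaCnng15100D. Upper-quartile factors shifted the median by 0.22 and gave 16965 genes called higher and 11909 lower in root, 58.8% higher. With DESeq2 the share called higher was 49.4%. The cause of each change was not tested. Leaving out 1 library gave 25316 to 28654 calls, and leaving out replicate 2 of both organs, chosen after seeing the data, gave 24585. Root-limited and leaf-limited counts became 719 and 456 at 1 CPM in the organ, 158 and 102 at 10 CPM, 94 and 48 with 0 reads in the other organ, and 975 and 832 under 0.5 CPM there. Without 1 library, or without replicate 2 of both organs, they ran from 302 to 392 and from 206 to 354, with 317 leaf-limited genes without root replicate 2. The C share difference reversed to −0.14 percentage points without the abundant genes and ran from 0.21 to 0.94 without 1 library. The labels do not say that same-numbered root and leaf libraries came from the same plants, so the numbers were not taken as pairs. Deviations of same-numbered libraries from their group means correlated positively, at 0.0341, 0.345 and 0.141 for numbers 1, 2 and 3. Those of differently numbered libraries ran from −0.279 to 0.18. On A01, A07, C03, C04, C06, C07 and C09 the shares had the same order of replicates in both organs, and on the remaining chromosomes they did not. How many would share an order by chance was not tested. Whether the libraries are paired is therefore not settled. Root 1 correlated best with leaf 3 (0.112). With the replicate number as a block, 27445 genes were called, and with 3 pairs the exact test cannot go below 0.25. Between same-numbered libraries the C share was higher in root in all 3 (exact paired p = 0.25), and the sign was also the same in all 3 on A01, C01, C02, C03, C07 and C09, whose groups overlapped. Depth limits the organ-limited lists, where 0.1 CPM is 1.44 to 2.18 reads. With counts thinned to the size of the smallest library, the lists held 299 root-limited and 228 leaf-limited genes.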

Other observations

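The order of the identifiers along a chromosome gave a view of neighbours, examined after the data were seen and without a test. Of 47061 genes with a chromosome, 2.88% were called at least 32-fold higher in root, and the next listed gene was in the same class for 5.46% of them. For genes at least 32-fold lower in root these values were 4.84% and 8.96%. The longest run higher in root held 3 genes, and 3 such runs were found.

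The longest run lower in root held 8 genes of C02, from BnaC02g07740D to BnaC02g07870D. Runs follow the order of the listed genes, and the identifiers within this run are not all consecutive. Its genes together had 2, 3 and 0 reads in the root libraries and 676, 376 and 679 reads in the leaf libraries. Single genes of the run averaged 0 to 0.0394 CPM in root and 1.80 to 8.34 CPM in leaf. In the silicon libraries the run had 3 reads in all in root, and every one of its genes had at least 0.750 CPM in each leaf library. The next longest runs lower in root held 4 genes, and there were 2 of them. What the genes of the C02 run encode is not stated in the files.

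Genes with neither a subgenome nor a chromosome in their identifier held 0.165 ± 0.00374% of counts in root and 0.102 ± 0.00555% in leaf without silicon, and 0.164 ± 0.0104% in root and 0.102 ± 0.00281% in leaf with silicon (SD, n = 3 each). Root and leaf libraries did not overlap in either case. Opposite-strand reads were 0.463 ± 0.0254% of stranded gene counts in root and 0.598 ± 0.119% in leaf without silicon (SD, n = 3 each; exact permutation p = 0.1, adjusted p = 0.167 over 5 measures by Benjamini-Hochberg). With silicon they were 0.499 ± 0.156% in root and 0.537 ± 0.161% in leaf (SD, n = 3 each; exact permutation p = 1), so the separation was not seen there.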
